A study of Mus musculus with 9 samples.

Results

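Heat shock proteins and chaperonins fold newly made proteins, refold damaged ones and pass those beyond repair on to be degraded. The 54 genes described here are mouse genes whose official symbols place them in the Hsp90, Hsp70, Hsp110, Hsp60, Hsp10 and small heat shock protein families, among the DnaJ proteins (also called Hsp40) or in the chaperonin that contains TCP1 (Cct). They were found by a pattern on the symbol, among 8251 genes that had a probe set annotated with exactly 1 symbol. Their 76 such probe sets covered 16 genes more than once, and the probe set with the highest mean over all arrays stood for a gene. A further 2 probe sets with several symbols were left out.

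The series profiled embryonic mouse orofacial tissue, from which the face and palate form, on gestation days 12, 13 and 14 (GD12, GD13 and GD14). Each day had 3 arrays of total RNA, numbered 1 to 3 in the labels, with no treatment, genotype or other factor named. Strain, litter, pooling of embryos and what the array numbers stand for are not given in the sources used here. Nothing there says that the arrays of a day came from separate embryos or litters, so the p-values measure only the spread between these samples, which may be technical.

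Hsp70 proteins grip exposed hydrophobic stretches of a client protein while they hydrolyse ATP. DnaJ proteins deliver clients to them and start the hydrolysis, and Hsp110 proteins exchange the spent nucleotide. Hsp90 takes over late folding steps of kinases and steroid receptors, whereas the Cct ring encloses actin and tubulin. Hsp60 with its lid Hsp10 does similar work in mitochondria, and small heat shock proteins hold unfolded proteins without using ATP. Heat shock factor binds heat shock elements in the promoters of many of these genes, and the endoplasmic reticulum stress element serves chaperones of the secretory pathway. Face and palate at these stages contain early bone, muscle, and mesenchyme that lays down collagen-rich matrix.

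From GD12 to GD14 these genes passed the test at a share near that of all probe sets. A moderated test in limma was run on log2(intensity + 3) over 9326 probe sets, and an adjusted p under 0.05 counted as a change. Of the 54 genes, 51 were bright enough to be tested, and Hspb1, Hspa2 and Dnajb5 were not. Between GD12 and GD14, 3 of the 51 (5.88%) passed, beside 4.30% of all tested probe sets: Hspa1b and Dnajc3 rose and Cct3 fell. Rises made up 3.24% of all tested probe sets and falls 1.06% (99 probe sets, which became 29 with only the days compared and 193 with the array number as a block). Between GD12 and GD13 none of the 51 passed in limma, beside 0.643% of all probe sets, and 4 members and 1023 of all probe sets had an unadjusted p under 0.05. Between GD13 and GD14 none passed either, beside 0.0429%, and 4 members and 670 of all probe sets had an unadjusted p under 0.05. The daily steps share the GD13 arrays, and each shares its other day with the comparison of GD14 with GD12. Hspa1b was also the member that passed when all days were tested at once by the F-test of the same model (adjusted p = 0.0274), beside 2.58% of all probe sets. No member passed a test of the second step against the first, beside 0.00% of all probe sets (in limma 0 members and 453 probe sets had an unadjusted p under 0.05).

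The members as a set lay close to the rest of the array. Their median log2 difference from GD12 to GD14 was -0.02, and that of all tested probe sets was also -0.02. For 29 of the 51 (56.9%) the difference was below 0, compared with 52.5% of all tested probe sets. The size of the difference was under 0.5 for 39 of the 51 (76.5%), compared with 77.2% of all. An unadjusted p under 0.05 was reached by 12 of the 51 members and by 1628 of the 9326 probe sets. The 3 values of GD14 all lay above those of GD12 for 5 members, beside 12.1% of all probe sets, and all below for 9, beside 10.3%. A control ratio differed between days: on the first and second arrays the actin 3′ probe set over the 5′ probe set gave 1.54 and 1.76 (GD12), 2.09 and 2.23 (GD13) and 2.44 and 2.29 (GD14), and on the third arrays 1.42, 1.25 and 1.37. Its part in the differences between days was not tested.

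**Figure D1:**
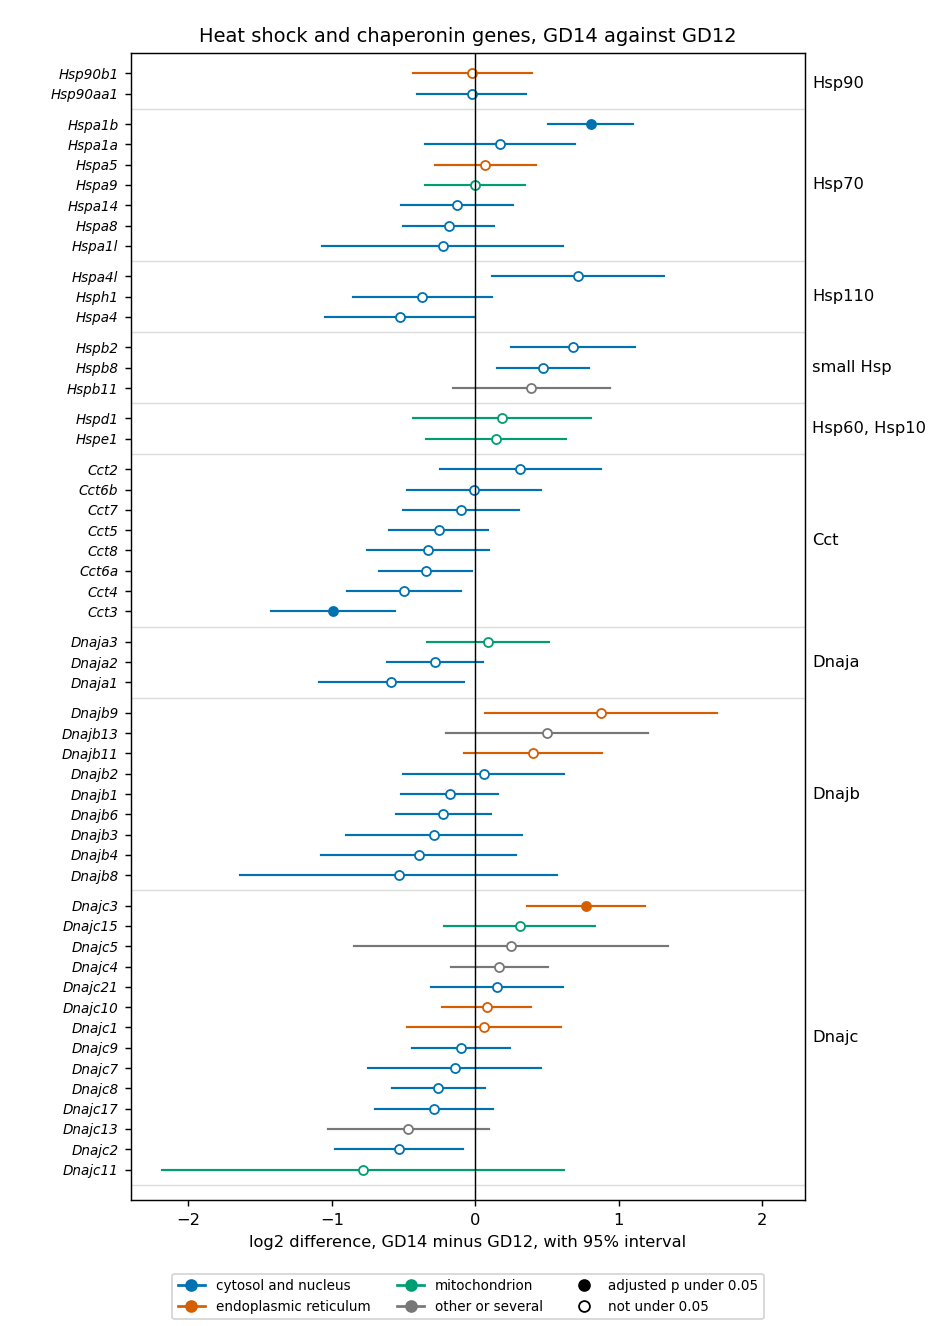
Log2 difference between GD14 and GD12 (x axis) for each of the 51 tested genes, grouped by family and coloured by cell compartment, with the 95% interval of the limma fit. Filled points passed the adjusted threshold: Hspa1b and Dnajc3 to the right of 0 and Cct3 to the left.

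Hspa1a and Hspa1b encode the stress-inducible Hsp70 of the cytosol and are neighbouring, nearly identical copies. The 250 bases before each start are given here because both copies carry the same heat shock element and their probe sets gave different values. The letters come from RefSeq on the GRCm38.p6 assembly and read 5′ to 3′ towards the gene, on the minus strand of chromosome 17, at chr17:34972157-34972406 for Hspa1a and at chr17:34959239-34959488 for Hspa1b. Capitals mark a pair of facing heat shock units, which 12.8% of all promoter windows of this length held. Neither copy held a run of 3 units.
Hspa1a: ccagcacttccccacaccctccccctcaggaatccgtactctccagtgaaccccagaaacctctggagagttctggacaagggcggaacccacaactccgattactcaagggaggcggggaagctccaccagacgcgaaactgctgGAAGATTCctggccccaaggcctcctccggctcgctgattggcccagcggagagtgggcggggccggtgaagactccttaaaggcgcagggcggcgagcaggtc
Hspa1b: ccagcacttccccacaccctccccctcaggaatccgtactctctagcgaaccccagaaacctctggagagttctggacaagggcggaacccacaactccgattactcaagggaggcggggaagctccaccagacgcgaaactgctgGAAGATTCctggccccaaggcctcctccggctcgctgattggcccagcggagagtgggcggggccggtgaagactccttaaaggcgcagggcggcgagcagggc
The windows were equal at 247 of 250 positions (98.8%), and the element began 104 bases before the start in both.

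Hspa1b was the member with the smallest adjusted p from GD12 to GD14. Its intensities were 46.6, 46.0 and 45.1 (GD12), 67.5, 68.6 and 73.8 (GD13) and 82.3, 86.6 and 78.5 (GD14). The 3 days did not overlap anywhere, and the GD12 arrays lay close together. The log2 difference from GD12 to GD14 was 0.81 (SE 0.13, 95% interval 0.51 to 1.10, adjusted p = 0.0106), a 1.75-fold rise. From GD12 to GD13 it was 0.58 (adjusted p = 0.116), and from GD13 to GD14 0.23 (adjusted p = 0.826). The GD14 call held in 21 of 21 alternative analyses, with adjusted p from 0.00318 to 0.0489.

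Hspa1a did not show the same course. Its intensities were 73.9, 47.4 and 63.0 (GD12), 73.2, 47.1 and 57.8 (GD13) and 59.9, 63.5 and 84.4 (GD14). The days overlapped throughout, and the arrays of a day differed far more than for Hspa1b. The log2 difference from GD12 to GD14 was 0.17 (95% interval -0.35 to 0.70, adjusted p = 0.782). Whether the probe sets of such similar copies separate their transcripts is not given in the sources used here, so the naming of the copy is uncertain. The difference between the copies was not tested.

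The other Hsp70 genes of the cytosol did not pass. Hspa8, the constitutive Hsp70 that works in every cell, gave 1649, 1730.2 and 1628 (GD12), 1752, 1762 and 1646 (GD13) and 1561, 1546 and 1309 (GD14). All GD14 values were below all earlier ones, by a log2 difference from GD12 of -0.18 (95% interval -0.50 to 0.13, adjusted p = 0.561). Hspa1l, known mainly from the testis, gave 31.8, 50.5 and 46.8 (GD12), 26.5, 75.0 and 35.6 (GD13) and 31.9, 50.5 and 28.0 (GD14). Its days overlapped, and the difference from GD12 to GD14 was -0.23 (95% interval -1.07 to 0.61). Hspa2, also a testis Hsp70, was too dim to test, at 8.1, 2.7 and 7.3 (GD12), 6.2, 2.7 and 7.8 (GD13) and 13.1, 14.1 and 11 (GD14).

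Chaperones of the endoplasmic reticulum help secreted and membrane proteins to fold. The upstream windows of Dnajc3, Hspa5 and Hsp90b1 are printed because these were the only members in which the full endoplasmic reticulum stress element was found, which only 0.113% of all 32851 promoter windows held. Capitals mark the element, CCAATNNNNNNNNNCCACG on either strand. Dnajc3 lies on the plus strand (chr14:118937682-118937931), Hspa5 on the plus strand (chr2:34771840-34772089) and Hsp90b1 on the minus strand (chr10:86705445-86705694), all 5′ to 3′ towards the gene, from RefSeq on GRCm38.p6.
Dnajc3: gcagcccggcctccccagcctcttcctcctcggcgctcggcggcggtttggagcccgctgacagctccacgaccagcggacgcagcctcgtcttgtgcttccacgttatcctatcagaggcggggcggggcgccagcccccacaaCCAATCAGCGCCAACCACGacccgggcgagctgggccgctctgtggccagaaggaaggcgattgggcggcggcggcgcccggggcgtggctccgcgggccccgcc
Hspa5: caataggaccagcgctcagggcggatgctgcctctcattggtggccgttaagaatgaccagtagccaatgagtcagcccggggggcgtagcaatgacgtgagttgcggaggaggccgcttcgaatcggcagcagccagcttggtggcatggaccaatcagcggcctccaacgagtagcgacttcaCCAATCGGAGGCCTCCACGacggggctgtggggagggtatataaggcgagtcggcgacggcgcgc
Hsp90b1: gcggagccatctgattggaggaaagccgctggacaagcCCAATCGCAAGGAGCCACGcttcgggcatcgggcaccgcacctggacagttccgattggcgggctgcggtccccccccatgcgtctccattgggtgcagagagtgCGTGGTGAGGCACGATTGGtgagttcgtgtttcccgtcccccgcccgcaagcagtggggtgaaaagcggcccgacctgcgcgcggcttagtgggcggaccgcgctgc
Hsp90b1 held 2 matches, the one nearer the gene on the opposite strand.

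Dnajc3, a DnaJ protein of the reticulum lumen that also restrains the kinase Eif2ak3, had intensities of 103, 122 and 86.4 (GD12), 127, 148 and 129.6 (GD13) and 193, 194 and 150.5 (GD14). Each day lay above the day before without overlap. The log2 difference from GD12 to GD14 was 0.78 (SE 0.18, 95% interval 0.36 to 1.19, adjusted p = 0.0499), a 1.71-fold rise. The call sat at the threshold and was kept in 6 of 21 alternatives, with adjusted p from 0.0189 to 0.166, the highest without the first GD14 array. With both other tested probe sets of Dnajc3 the differences were 0.47 (adjusted p = 0.342) and 0.24 (adjusted p = 0.665).

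Hspa5 and Hsp90b1, which share the element with Dnajc3, did not pass. Hspa5 (BiP, the Hsp70 of the reticulum) read 1089, 1086 and 1309.5 (GD12), 1507, 1289.8 and 1456 (GD13) and 1328, 1096 and 1234 (GD14). It was highest on GD13, where only the second array fell within the GD12 range, and the difference from GD12 to GD14 was 0.07 (95% interval -0.28 to 0.42, adjusted p = 0.873). Hsp90b1, the Hsp90 of the reticulum, read 1658, 1652 and 1354 (GD12), 1935, 1706 and 1372 (GD13) and 1736, 1500.3 and 1368 (GD14). Its days overlapped, with a difference from GD12 to GD14 of -0.02 (95% interval -0.43 to 0.40).

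The remaining reticulum genes were DnaJ proteins. Dnajb9, which binds Hspa5 and is induced when folding fails, gave 52.6, 57.5 and 64.3 (GD12), 89.7, 103 and 105 (GD13) and 129.7, 178 and 55.5 (GD14). The third GD14 array fell back into the GD12 range while the other two were the highest of all. Over all arrays the difference from GD12 to GD14 was 0.88 (SE 0.36, adjusted p = 0.244). Without the third GD14 array it was 1.35 (adjusted p = 0.0110), and without the second GD14 array 0.53 (adjusted p = 0.502). Its other tested probe set gave 0.27 (adjusted p = 0.570).

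Dnajb11, a soluble Hspa5 partner that binds unfolded chains, gave 102, 99.8 and 103 (GD12), 181, 132 and 144 (GD13) and 174, 102 and 140.0 (GD14). All GD13 values exceeded all GD12 values, by 0.55 (adjusted p = 0.371), and the GD14 values straddled both. Dnajc1 and Dnajc10 completed the set, with differences from GD12 to GD14 of 0.06 and 0.08.

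Seen as a compartment, all 7 reticulum genes were higher on GD13 than on GD12, with a median log2 difference of 0.29, while all tested probe sets had a median of 0.03 and 53.3% above 0. None of the 7 passed the test in that step. Under scaling to a common array median 6 of 7 lay above 0, and the median was 0.23. Array by array, the median of the 7 against their GD12 means was 0.32, 0.36 and 0.33 on GD13, and -0.08, 0.07 and 0.02 on GD12. On GD14 it was 0.20, 0.01 and 0.09, the second array lying within the GD12 range, and 6 of 7 were above GD12 (median 0.08).

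**Figure D2:**
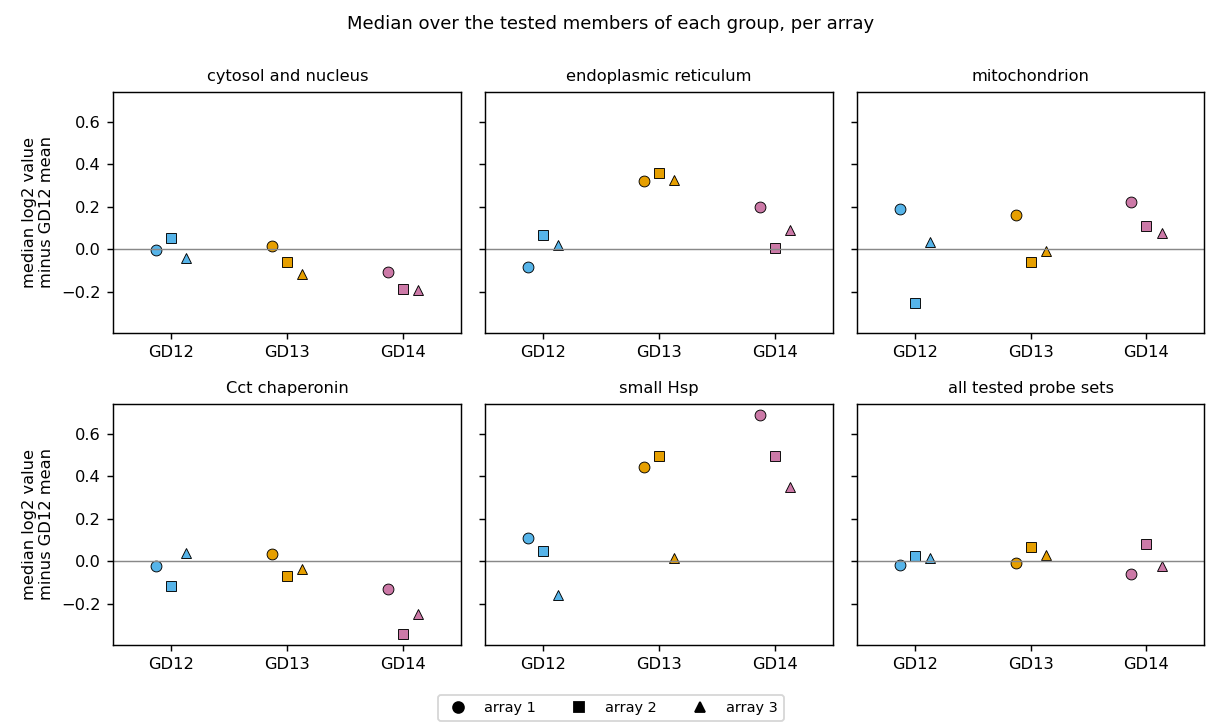
Median over the tested genes of a compartment or family on each array (y axis: log2 value minus the gene's GD12 mean), by gestation day, with array number shown by symbol; the last panel gives all 9326 tested probe sets. The reticulum panel is highest on GD13, the Cct panel lowest on GD14, and the panel of all probe sets stays between -0.06 and 0.08.

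The Cct ring is built from paired rings of different subunits, and its best known clients are actin and tubulin. Of its 8 tested genes 7 were lower on GD14 than on GD12, with a median log2 difference of -0.29 (range -0.99 to 0.32), beside 52.5% below 0 and a median of -0.02 over all probe sets. Cct3 passed the test and the others did not. The median stayed below 0 in 21 of 21 alternatives (-0.36 to -0.21). Some of these, such as leaving out a GD13 array, cannot change a difference between GD12 and GD14. From GD12 to GD13 the 8 genes split evenly, 4 above and 4 below 0 (median 0.00), and from GD13 to GD14 7 of 8 were below 0 (median -0.29).

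Cct3 read 1100.5, 1341 and 980.2 (GD12), 745, 740.4 and 853 (GD13) and 490.3, 533 and 698 (GD14). Every day lay below the day before without overlap. The log2 difference from GD12 to GD14 was -0.99 (SE 0.19, 95% interval -1.42 to -0.56, adjusted p = 0.0219), a 1.99-fold fall. The other probe sets of the gene gave -0.34 (adjusted p = 0.384) and 0.02 (adjusted p = 0.971), and with the mean of all 3 the difference was -0.44 (adjusted p = 0.144). The reported probe set is of a type that may also detect related sequences, so the fall rests on 1 probe set. The call held in 15 of 21 alternatives and was lost, among others, without the first or the second array of GD12 (adjusted p = 0.0683 and 0.0719) or of GD14 (0.0911 and 0.0809).

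Cct4 had the next largest difference. It read 1533, 1292 and 1345 (GD12), 1287, 1106 and 1258 (GD13) and 1034, 799 and 1149 (GD14), all GD14 values being below all GD12 values. The difference was -0.49 (95% interval -0.89 to -0.10, adjusted p = 0.181). Cct6a read 332, 336 and 332 (GD12), 356, 338 and 327 (GD13) and 299, 256 and 234 (GD14). GD14 was lower than both earlier days without overlap, at -0.34 from GD12 (adjusted p = 0.256). The probe set used for Cct6a is also of a type that may detect related sequences, and the other one was too dim to test.

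Cct5 gave 1883, 1479 and 1528 (GD12), 1677, 1556 and 1692 (GD13) and 1393, 1252 and 1433 (GD14). Its GD14 values were below all others, by -0.26 from GD12 (95% interval -0.60 to 0.09). With the other Cct5 probe set the days overlapped, and the difference was -0.14 (adjusted p = 0.838). Cct8 read 346, 460.5 and 434 (GD12), 436, 389 and 397 (GD13) and 386, 341 and 263 (GD14), so that GD14 overlapped GD12 (-0.33, 95% interval -0.76 to 0.10). Cct7 was nearly level, with 1693, 1523 and 1829 (GD12), 1704, 1353 and 1791 (GD13) and 1555, 1353 and 1812 (GD14).

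Of the 8 genes Cct2 alone had a difference above 0, with 71.1, 59.2 and 106 (GD12), 112, 96.1 and 70.5 (GD13) and 109, 91.6 and 88.3 (GD14) (0.32, 95% interval -0.25 to 0.88), and its days overlapped. Cct6b, the testis form of Cct6a, read 27.0, 28.3 and 40.8 (GD12), 30.8, 32.5 and 41.4 (GD13) and 31.3, 36.8 and 26.5 (GD14), with overlap between all days (-0.01 from GD12 to GD14). Tcp1, the subunit that gave the ring its name, falls outside the symbol pattern and read 131, 129.5 and 144 (GD12), 117, 139.7 and 131 (GD13) and 101, 128 and 105 (GD14). Its GD14 values were below all GD12 values, at -0.28 (adjusted p = 0.410).

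Genes with symbols of small heat shock proteins differed in the other direction. All 3 tested genes were higher on GD14 than on GD12, with a median log2 difference of 0.47, beside 47.5% above 0 over all probe sets, and none passed. Hspb2, which is known from heart and skeletal muscle, read 262, 261 and 232 (GD12), 333, 294 and 254 (GD13) and 432, 478 and 320.3 (GD14). The GD14 values were above all GD12 values, with a difference of 0.68 (SE 0.19, 95% interval 0.25 to 1.11, adjusted p = 0.0907). With the array number as a block the adjusted p was 0.0350, and 4 members passed in place of 3, while 6.65% of all probe sets passed in place of 4.30%. The gene was called in 5 of 21 alternatives, and its other probe set gave 0.70 (adjusted p = 0.363).

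Hspb8, which clears misfolded proteins together with the co-chaperone Bag3, read 163, 156 and 135 (GD12), 206, 214 and 190.3 (GD13) and 203, 214 and 216 (GD14). GD12 was below both later days, which overlapped each other, and the difference from GD12 to GD14 was 0.47 (95% interval 0.15 to 0.79, adjusted p = 0.113). Its other probe set was too dim to test, and with the mean of both the difference was -0.005 (adjusted p = 0.997). Bag3, named only because it is the partner of Hspb8, had a difference of 0.53 (adjusted p = 0.168). The 18 tested cytosolic co-chaperones, Bag3 among them, had a median of -0.19. Hspb11, counted here by its symbol only and placed among the genes of other compartments, had a difference of 0.39 (adjusted p = 0.455). Hspb1, the widespread small heat shock protein, stayed under the brightness limit of 10.4 in its mean, at 2.0, 2.9 and 8.0 (GD12), 2.1, 2.7 and 1.2 (GD13) and 0.9, 2.8 and 11.6 (GD14).

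Muscle markers moved over the same days. Of 13 tested skeletal muscle markers 6 rose from GD12 to GD14, beside 3.24% of all tested probe sets. They were Acta1, Actc1, Myl1, Tnnt3, Tnnc1 and Tnni1. Mylpf, Tnnt2, Myh3, Myog, Myod1, Des and Ckm did not pass, and Ckm alone had a difference below 0 (-0.38, adjusted p = 0.796). The summed intensity of the list ran from 1501 to 1914 on GD12, 2112 to 2361 on GD13 and 3133 to 4792 on GD14. Myh8 was too dim to test. Their part in the values of Hspb2 and Hspb8 was not tested. In tissue made of several cell types, more cells of a type and more RNA per cell cannot be told apart.

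**Figure D3:**
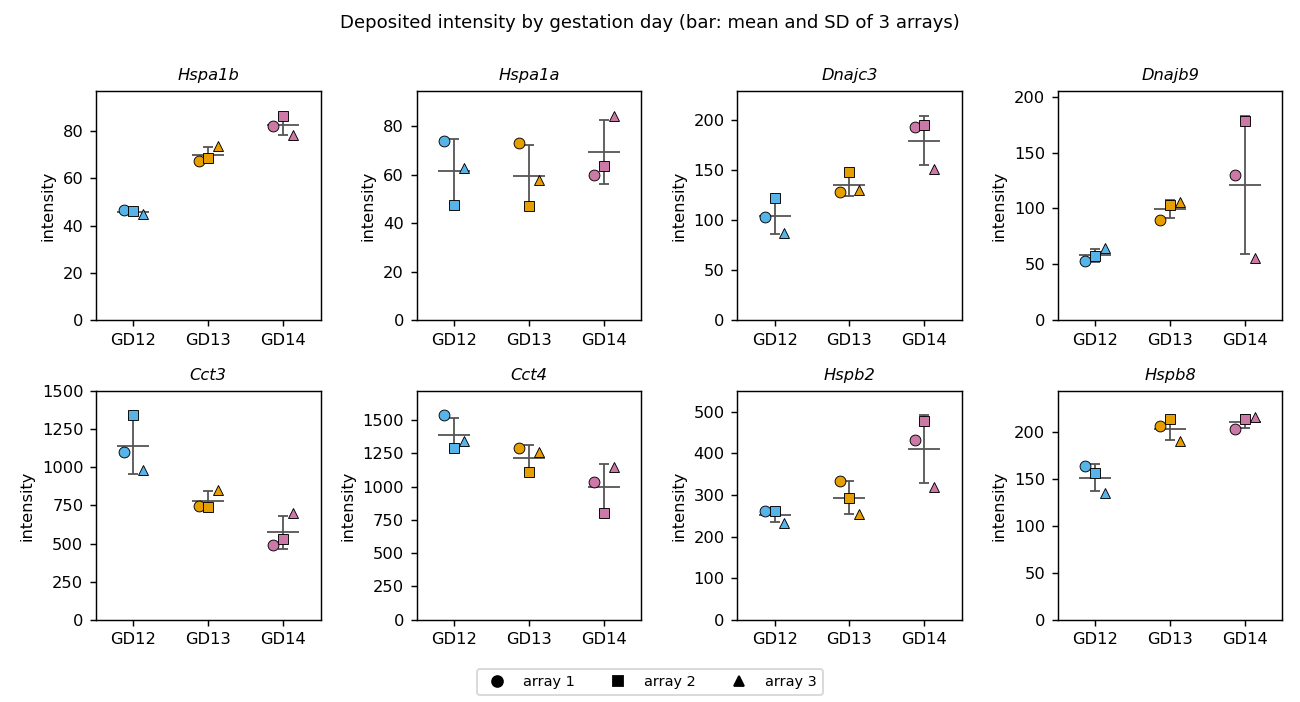
Deposited intensity (y axis, from 0) of 8 genes on GD12, GD13 and GD14; symbols give the array number, and bars the mean and SD of 3 arrays. Hspa1b and Dnajc3 step up and Cct3 steps down without overlap between days, Hspa1a does not, and the third GD14 array of Dnajb9 lies at the GD12 level.

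The Hsp90 of the cytosol did not pass in any comparison. Hsp90aa1, the inducible form that completes the folding of kinases and receptors, read 2889.7, 3236 and 2279 (GD12), 2664, 2451 and 2539 (GD13) and 2624, 2576 and 2998 (GD14). The days overlapped, and the difference from GD12 to GD14 was -0.02 (95% interval -0.41 to 0.36). The other probe set of Hsp90aa1 was too dim to test. Hsp90ab1, the constitutive form, was not analysed here.

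The 3 Hsp110 genes, nucleotide exchange factors for Hsp70, did not move together, and none passed. Hspa4 read 1726, 2059 and 1270.4 (GD12), 1302, 1544 and 1138 (GD13) and 1079, 1426 and 984 (GD14). The days overlapped because the third array was lowest and the second highest on every day, and the difference from GD12 to GD14 was -0.52 (95% interval -1.05 to 0.00, adjusted p = 0.285). Within each array number the values fell from day to day. In the limma fit with the array number as a block the adjusted p was 0.0586, while 6.65% of all tested probe sets passed. The 4 other probe sets of Hspa4 also gave differences below 0, at -0.60, -0.52, -0.48 and -0.05, and none passed.

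Hsph1, the heat-inducible member, followed the same order of arrays, with 575, 724 and 467 (GD12), 477, 582 and 428 (GD13) and 471, 509.9 and 376 (GD14) (-0.37, 95% interval -0.85 to 0.12). Its adjusted p was 0.430 in the reported limma fit and 0.127 with the array number as a block. Hspa4l went the other way, with 31.3, 30.6 and 40.1 (GD12), 24.8, 47.5 and 24.3 (GD13) and 56.3, 70.1 and 47.8 (GD14). Its GD14 values lay above all others, at 0.72 from GD12 (95% interval 0.11 to 1.32, adjusted p = 0.198) and 0.84 from GD13 (adjusted p = 0.454).

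DnaJ proteins were the most numerous, with 27 genes and 26 tested. From GD12 to GD14 1 rose (Dnajc3), none fell, and 14 of the 26 were below 0 (53.8%, median -0.12), beside 3.24% risen, 1.06% fallen and 52.5% below 0 over all tested probe sets. Dnaja1 and Dnaja2 are the general partners of cytosolic Hsp70. Dnaja1 read 1375, 1672 and 1003 (GD12), 1262, 1204 and 944 (GD13) and 884, 1009 and 766 (GD14). GD14 touched the GD12 range only through the third GD12 array, and the difference was -0.58 (95% interval -1.09 to -0.08, adjusted p = 0.212). The adjusted p of Dnaja1 was 0.0555 in the limma fit with the array number as a block. Dnaja2 read 138, 176 and 149 (GD12), 129.7, 124 and 137 (GD13) and 125, 119.6 and 134 (GD14), below GD12 on both later days (-0.28, adjusted p = 0.380).

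Dnajb1, the heat-inducible Hsp40, was close to level, with 219, 206 and 239 (GD12), 217, 187 and 231 (GD13) and 197, 181 and 208 (GD14) (-0.18, 95% interval -0.52 to 0.16). Dnajb8, known from the testis, was dim and uneven, with 11.6, 23.1 and 18 (GD12), 6.7, 15.2 and 17.3 (GD13) and 3.3, 17.5 and 17.4 (GD14). The first array was lowest on every day, and the interval of its difference ran from -1.64 to 0.57. Dnajb5 was too dim to test.

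Dnajc11, a mitochondrial membrane protein, had the widest interval of all members. It read 123, 40.2 and 94.5 (GD12), 28.8, 20.3 and 71.0 (GD13) and 67.2, 17.8 and 68.6 (GD14), so the spread within a day exceeded that between days (-0.78 from GD12 to GD14, 95% interval -2.19 to 0.62). Differences of the other Dnaja, Dnajb and Dnajc genes from GD12 to GD14 lay between -0.53 and 0.50, and none passed.

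The mitochondrial chaperonin did not pass in any comparison. Hspd1 (Hsp60) and Hspe1 (Hsp10) are arranged head to head, and an upstream window of Hspd1 shared 215 bases with that of Hspe1. Another Hspd1 start had a window (chr1:55088244-55088493) without this overlap and without a pair of heat shock units. The window of Hspe1 is printed because it holds the run of heat shock units that both genes share, in capitals, at chr1:55087898-55088147 on the plus strand (RefSeq, GRCm38.p6, 5′ to 3′ towards Hspe1).
Hspe1: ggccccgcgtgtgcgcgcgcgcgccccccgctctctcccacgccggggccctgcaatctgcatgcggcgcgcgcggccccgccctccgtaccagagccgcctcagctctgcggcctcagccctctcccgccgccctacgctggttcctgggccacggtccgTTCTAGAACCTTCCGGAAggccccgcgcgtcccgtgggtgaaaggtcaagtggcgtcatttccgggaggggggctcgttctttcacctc
Hspd1 read 2532, 1345 and 2862 (GD12), 2706, 2076 and 2404 (GD13) and 2669, 2382 and 2267 (GD14). The second GD12 array was the lowest of all, the days overlapped, and the difference from GD12 to GD14 was 0.19 (95% interval -0.43 to 0.81). With the other Hspd1 probe set it was 0.07 (adjusted p = 0.953), and the days overlapped too. Hspe1 read 1625, 1408 and 1236 (GD12), 2076, 1906 and 1264 (GD13) and 1745, 1476 and 1483 (GD14), again with overlap (0.14, 95% interval -0.34 to 0.63).

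Hspa9, the Hsp70 of the mitochondrial matrix, was the most level of the named genes. It read 952, 910.4 and 732 (GD12), 953, 860.5 and 909 (GD13) and 865, 798 and 917 (GD14). Its difference from GD12 to GD14 was 0.00 to 2 decimals (95% interval -0.35 to 0.35). Over the 6 mitochondrial genes the median difference was 0.12, with 4 above 0.

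Between compartments, the 33 tested genes of cytosol and nucleus had the lowest median from GD12 to GD14, at -0.22, with 25 of 33 (75.8%) below 0, beside 52.5% of all tested probe sets. The 33 include the 8 Cct genes, of which 7 were below 0, so the 2 patterns are not separate. The reticulum median was 0.08 and the mitochondrial median 0.12. The 5 genes of other places (Dnajb13, Dnajc4, Dnajc5, Dnajc13 and Hspb11) had the highest median, 0.25, with 4 of 5 above 0, and from GD12 to GD13 theirs was 0.33. The cytosol median stayed below 0 in 21 of 21 alternatives (-0.26 to -0.14), the reticulum median above 0 (0.03 to 0.27) and the mitochondrial median above 0 (0.02 to 0.21). Not all alternatives could move them. Trended and robust variances, the array number as a block, leaving out a GD13 array and only the days compared leave these differences unchanged. In the step from GD12 to GD13 the mitochondrial median was 0.05 and changed sign under scaling to a common array median (-0.01), without the second GD12 array (-0.12) and without the first GD13 array (-0.01). No test was run between compartments, since the genes of a compartment are not replicates and were chosen with results known.

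Heat shock elements were searched for upstream of all members. Promoter windows were found for 46 of the 54 genes, 60 windows in all. A pair of units, GAANNTTC or TTCNNGAA, stood in 14 of the 60 (23.3%), in 12 genes, compared with 12.8% of all windows. Runs of 3 units, GAANNTTCNNGAA or TTCNNGAANNTTC, which contain the pairs, stood in 4 windows of 3 genes (Dnajb6, Hspd1 and Hspe1), compared with 0.466% of all. The Dnajb6 windows overlap and hold the same run, and Hspd1 and Hspe1 share theirs. The pairs in the overlapping Hsph1 windows and in the nearly identical windows of Hspa1a and Hspa1b also repeat. Shared stretches thus count more than once in the member shares. Of the tested genes with windows, the 11 with a pair had a median difference from GD12 to GD14 of 0.08 (range -0.58 to 0.81), and the 32 without had -0.06 (range -0.99 to 0.88). The 3 genes with the reticulum element had 0.78 (Dnajc3), 0.07 (Hspa5) and -0.02 (Hsp90b1). A match of letters is a description and shows no binding.

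Arrays numbered 3 stood apart from the others in several of these genes. The third array was the lowest of its day on all 3 days for 14 of the 51 tested members, beside 11.5% of all tested probe sets, and the highest on all 3 days for 4, beside 11.8%. The 14 included Hspa4, Hsph1, Hspa8, Dnaja1, Dnajc7, Hsp90b1, Cct6a and Hspb2. Dnajc7, which was chosen as an example after its values were seen, read 523, 599 and 348 (GD12), 551, 523 and 368 (GD13) and 481, 505 and 332 (GD14). The third arrays also had the lowest actin control ratio (3′ probe set over 5′ probe set) of their day, at 1.25 to 1.42 compared with 1.54 to 2.44, and of the Gapdh control, at 0.802 to 0.851 compared with 1.09 to 1.29. Of 9 tested neuron markers 6 were lowest on the third array on all days. The part of these in the members' values was not tested.

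Results without the third arrays were as follows. From GD12 to GD14 3 members passed, beside 3.07% of all tested probe sets: Hspa1b (0.83, adjusted p = 0.0478), Cct3 (-1.24, adjusted p = 0.0335) and Dnajb9 (1.42, adjusted p = 0.0411), while Dnajc3 did not (0.77, adjusted p = 0.0889). The Cct median was -0.21, with 6 of 8 below 0. All 7 reticulum genes were again above 0 from GD12 to GD13 (median 0.29).

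**Figure D4:**
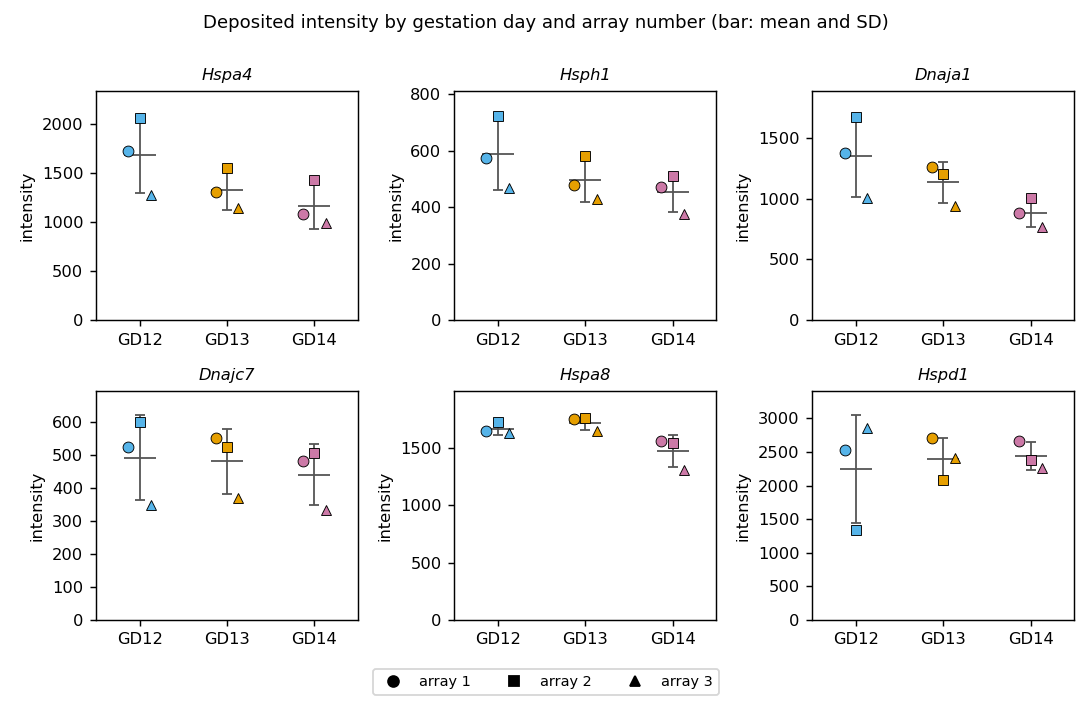
Deposited intensity (y axis, from 0) of 6 genes by gestation day, with the array number shown by symbol and bars for the mean and SD of 3 arrays. In Hspa4, Hsph1, Dnaja1, Dnajc7 and Hspa8 the third array is the lowest of its day on each day, and in Hspd1 it is not.

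Partners and regulators of these chaperones were taken from a list. Of its 83 genes 66 had a probe set and 60 were tested. Between GD12 and GD14 1 of the 60 passed, beside 4.30% of all tested probe sets, and none passed in either daily step. The gene was Fkbp9, a prolyl isomerase of the reticulum, with 691, 652 and 729.9 (GD12), 1074, 1116 and 886 (GD13) and 1106, 1213 and 1006 (GD14). Both later days lay above GD12 without overlap, by 0.68 on GD14 (SE 0.16, adjusted p = 0.0454).

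The 19 tested reticulum folding genes had a median difference from GD12 to GD14 of 0.32, and the 7 tested regulators of the unfolded protein response had 0.35, none of which passed. The 18 tested cytosolic co-chaperones had -0.19, and the 7 partners of the chaperonin and prefoldin had -0.20. Serpinh1, the collagen chaperone of the reticulum, read 1865, 1975 and 2312 (GD12), 2444, 2372 and 2428 (GD13) and 2968, 2541 and 2826 (GD14). It stood higher on each later day without overlap and did not pass (0.44 from GD12 to GD14, adjusted p = 0.154). Canx, a lectin chaperone for glycoproteins, overlapped between days (-0.32, adjusted p = 0.557). Calr and Hsf2 were too dim to test, and Hsf1 and Trap1 were not analysed here.

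Markers of other cell types in the tissue also moved over these days. From GD12 to GD14, 3 of 4 tested osteoblast markers rose (summed intensity 147.8 to 207.8 on GD12 and 2150 to 3450 on GD14). So did 6 of 8 macrophage, 3 of 7 epithelial and 2 of 5 cartilage markers. Over all tested probe sets 3.24% rose and 1.06% fell. Of erythroid markers 3 of 7 fell, of neuron markers 1 of 9 and of 12 orofacial mesenchyme markers 1 (Msx1), all 12 of which were bright enough to test. No endothelial marker passed (0 of 7). Krt5, Krt14 and Krt15, which define stratified epithelium, and Col2a1, which defines cartilage, were too dim to test. Their part in the reticulum and Cct values was not tested.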

How the data were processed

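Total RNA of mouse embryonic orofacial tissue was measured on 9 oligonucleotide arrays, 3 for each of 3 gestation days. The authors deposited 1 table of intensity values for 12488 probe sets, which are linear, never negative and close to a common scale (array medians 47.15 to 56.95). The software and scaling that made them are not given in the sources used here. Symbols came from the platform annotation, and a probe set with several symbols was not used.

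Intensities were transformed as log2(intensity + 3). The 66 control probe sets, and probe sets whose mean was at or under the 25th percentile (an intensity of 10.4), were not tested. The other 9326 were fitted with limma 3.58.1 in R 4.3.3, as 3 day means with moderated variances (degrees of freedom 6 residual, 2.85 prior). Benjamini-Hochberg adjustment ran over all 9326 p-values. Differences, standard errors (SE) and 95% intervals are those of this fit, on the log2 scale with 3 added, which understates changes of dim probe sets. Arrays have no read depth, and their number limits the precision. Families and compartments were assigned by hand and are described by counts and medians, without a test.

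The members, families, partner lists and marker lists were chosen with earlier results of these data known. Named with values in every array were members that passed any test, the 2 of each family with the largest GD14 minus GD12 difference, and a set of well known genes whatever their values; of the partners, those that passed and 7 well known ones. Promoter windows are the 250 bases before RefSeq starts (GRCm38.p6), searched on both strands in Python 3.11.15.

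The array numbers were checked for pairing on deviations from the day means: arrays with the same number correlated at 0.19 to 0.42 in 9 pairs, and arrays with different numbers at -0.29 to -0.02 in 18 pairs. Deviations within a day cancel out, so positive values in the first set force negative ones on average in the second, which adds no separate evidence. By the positive correlations alone the numbers pair arrays across days. The labels do not say what the numbers mark, and the fit without a block was the one reported. Alternatives were quantile normalization, scaling to a common median, other added values (1 and 11), no filter and a filter at the median, trended and robust variances, array weights, the array number as a block, leaving out each array, only the days compared, the mean of a gene's probe sets, and, added after seeing the data, leaving out the third array of each day.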

Additional observations from a re-analysis of the deposited data

How the results depend on the processing

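Over up to 21 alternatives the 31 named genes gave 646 log2 differences for GD14 against GD12. Of these 595 kept direction and side of the threshold, 21 lost the threshold (Dnajc3 and Cct3), 7 gained it (Hspb2 and Dnajb9), and 23 changed sign without passing. For GD13 against GD12 609 kept both, 36 changed sign without passing, and 1 gained the threshold (Hspa1b with array weights, adjusted p = 0.0428, the 1 member then called). For GD14 against GD13 626 kept both and 20 changed sign. In the fit with the array number as a block Hspb2 gained its call and no other member's call changed, while calls over all probe sets from GD12 to GD14 went from 401 to 620. Array weights gave 615 calls and only the days compared 227. The 99 falls among the 401 ranged from 31 to 100 with an array left out. From GD12 to GD13 the 60 calls became 35 without a filter, 94 with a filter at the median, 115 with trended and robust variances, 201 with array weights, 31 with only the days compared and 10 without the third arrays. From GD13 to GD14 the 4 calls became 2 with quantile normalization, with 1 added or with only the days compared, 16 with 11 added, 19 with a filter at the median, 26 with trended and robust variances, 11 with array weights, and 0 without a filter, without the third arrays or with the mean of a gene's probe sets. Members called from GD12 to GD14 numbered 1 with only the days compared or with the mean of a gene's probe sets. With each array left out in turn, calls ranged from 17 to 59, 0 to 4 and 178 to 394 in the order GD13 against GD12, GD14 against GD13 and GD14 against GD12, and members called in the last from 1 to 5: 1 without the first or second array of GD12 or of GD14, and 5 without the third GD14 array. The members' median moved to -0.042 for GD13 against GD12 under scaling to a common median. It ranged from -0.132 to -0.042 for GD14 against GD13 and from -0.116 to -0.024 for GD14 against GD12 with an array left out, and was -0.088 in the latter without the third arrays. Signal over background limits the dim members: Hspb1, Hspa2 and Dnajb5 had no test. The causes were not tested.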
